A study of Homo sapiens with 3 samples.

Results

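Transcripts of the cytosolic ribosomal proteins were followed in the human myeloma cell line MM1S during treatment with FK866, an inhibitor of NAMPT, the enzyme of the NAD salvage pathway. The genes were chosen by name: probe sets whose platform annotation gave exactly 1 gene symbol of the form RPL, RPLP, RPS or RPSA, without pseudogenes. This found 120 probe sets of 59 genes among 54675 probe sets of the array, and 109 probe sets of 58 genes had a mean signal of 20 or more over the 3 arrays. Among all probe sets with 1 gene symbol, 21495 passed the same filter. The groups were MM1S cells without FK866 (labelled 0 h), cells with 10 nM FK866 for 6 h and cells with 10 nM FK866 for 24 h, with 1 array each. Where 3 signals follow a gene, they are those of the untreated, 6 h and 24 h arrays in this order. All cells were grown in RPMI-1640 with FBS, antibiotics and L-glutamine. There were 0 untreated arrays at the treated times, so FK866 and time in culture cannot be told apart. With 1 array per group no test was possible and nothing measures the spread between cultures.

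The cytosolic ribosome is built from ribosomal RNAs and a fixed set of proteins, in a small 40S subunit that reads the mRNA and a large 60S subunit that joins amino acids. Most ribosomal protein mRNAs begin with a run of pyrimidines, the 5' terminal oligopyrimidine (TOP) tract, through which mTORC1 and the RNA-binding protein LARP1 control their translation and stability. Myeloma cells derive from plasma cells, which secrete large amounts of antibody and therefore depend on protein synthesis. Such control at translation is not visible to an array that measures transcripts.

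The start of transcription was examined first, because the TOP tract is a feature that the choice by name did not use. Of the 59 genes, 51 had annotated starts in the table of RefSeq starts used here (GRCh38.p14). The other 8 had no entry in it, which does not mean that RefSeq gives them no start. In 35 of these 51 genes (68.6%), at least 1 annotated start was a C followed by at least 4 pyrimidines (C or T) on the transcribed strand, against 1404 of 27305 genes of the table (5.14%). When the run could begin within 5 bases of the start, it was found in 41 of 51 ribosomal protein genes (80.4%) and in 25.2% of all genes. The 40S genes (14 of 19 at the start) and the 60S and P stalk genes (20 of 27) had similar shares, whereas 1 of 5 paralogue genes had the run. Among genes that are not paralogues, the median log2 difference from untreated cells was -0.066 at 6 h and -0.10 at 24 h for 40 genes with the run within 5 bases, and -0.10 and -0.13 for 6 genes without it. The sequences printed here run from 10 bases before the start through the first 20 transcribed bases, with the run in capitals. The first 8 are shown because they belong to the genes whose signals are described in detail and carry the tract at the start.
RPL22, chr1:6199576-6199605, minus strand: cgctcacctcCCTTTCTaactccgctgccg
RPL22L1, chr3:170870176-170870205, minus strand: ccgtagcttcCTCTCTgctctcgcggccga
RPS25, chr11:119018324-119018353, minus strand: gcagcgcttcCTTTTTgtccgacatcttga
RPL11, chr1:23691796-23691825, plus strand: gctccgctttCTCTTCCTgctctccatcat
RPLP2, chr11:809957-809986, plus strand: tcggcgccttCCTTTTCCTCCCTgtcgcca
RPL41, chr12:56116623-56116652, plus strand: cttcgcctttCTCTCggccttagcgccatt
RPS24, chr10:78033853-78033882, plus strand: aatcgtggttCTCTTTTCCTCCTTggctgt
RPL37A, chr2:216498834-216498863, plus strand: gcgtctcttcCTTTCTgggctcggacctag

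The next sequences show annotated starts without such a run within 5 bases, for both starts of RPL6, for RPS15 and RPS29, and for the paralogue genes RPS27L and RPL7L1. A start without the run says only that these letters are not at that annotated position.
RPL6, chr12:112411423-112411452, minus strand: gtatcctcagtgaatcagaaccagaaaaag
RPL6, chr12:112409266-112409295, minus strand: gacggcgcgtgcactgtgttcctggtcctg
RPS15, chr19:1438386-1438415, plus strand: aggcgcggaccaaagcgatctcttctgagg
RPS29, chr14:49598691-49598720, minus strand: agcgcgcagctggcagcggtggttgtttct
RPS27L, chr15:63157458-63157487, minus strand: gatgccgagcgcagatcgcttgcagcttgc
RPL7L1, chr6:42879606-42879635, plus strand: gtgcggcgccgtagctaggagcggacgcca

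**Figure D1:**
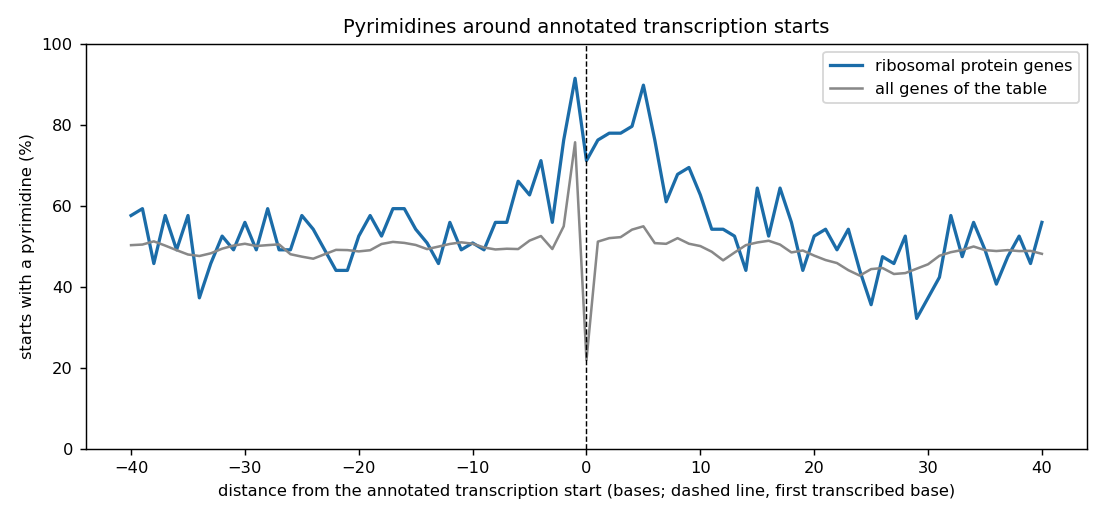
The share of annotated starts (%, vertical axis) with a pyrimidine at each distance from the start (bases, horizontal axis; the dashed line marks the first transcribed base), for ribosomal protein genes (blue) and all genes of the table (grey). At the first transcribed base the share was 71.2% for ribosomal protein genes and 21.9% for all genes, and it stayed between 76.3% and 89.8% over the next 6 bases.

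Markers of plasma cells were measured on each array. Signals of 7 plasma cell markers ranged from 422.6 (CD38 at 24 h) to 9012.7 (TNFRSF17 at 6 h), whereas 2 of 5 markers of other cells passed the filter and the T cell gene CD3E and the myeloid genes CD14 and LYZ did not. By its brightest probe set COL1A1, a fibroblast collagen, had signals of 101.5, 53.4 and 19.3, and by its second 48.3, 55.9 and 69.2. The haemoglobin gene HBB had 322.6, 340.0 and 288.9. The arrays differed in level, with a median signal of 20.4 on the untreated array, 17.4 on the 6 h array and 17.2 on the 24 h array. The median log2 difference over all 21495 probe sets was -0.12 at 6 h and -0.15 at 24 h against untreated cells, and differences of the ribosomal protein genes are compared with these shifts. Signals below 16 were set to 16 before log2 values were taken. The log2 ratio of 3' to 5' control probe sets, a sign of RNA quality, lay between 0.20 and 0.32 for GAPDH and between 2.25 and 2.55 for ACTB, and its part in the results was not tested. The arrays hold RNA pooled from many cells, so fewer cells with a transcript and less of it per cell cannot be told apart.

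As deposited, 93 of the 109 ribosomal protein probe sets lay below untreated cells at 6 h and 93 at 24 h, as did 13978 and 14471 of all 21495 probe sets. Among those with a mean signal of at least 5000, 61 of 68 lay below at 6 h and 60 at 24 h. Of 353 other probe sets that bright, 306 and 332 did. At 1000 or more the counts were 65 and 64 of 75, against 2233 and 2309 of 2967 others. Over the 109 probe sets, the median log2 difference was -0.085 at 6 h and -0.11 at 24 h against untreated cells, and -0.022 at 24 h against 6 h. A difference of 1.5-fold or more was counted. At 6 h, 7 probe sets were lower by that much and 0 higher, where 13.2% of all probe sets were lower and 5.24% higher. At 24 h, 13 were lower and 0 higher, where 15.9% of all probe sets were lower and 4.44% higher. At 24 h against 6 h, 4 were lower and 0 higher, where 8.14% of all probe sets were lower and 5.47% higher. Counted at 2-fold, 0 were lower at 6 h (4.11% of all probe sets), 4 at 24 h (5.07%) and 3 at 24 h against 6 h (1.94%).

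The sign of the small median depended on how the arrays were scaled: at 6 h it was -0.085 as deposited but 0.0062 after quantile normalization, 0.14 after centring on array medians and 0.020 after centring on bright probe sets of other genes. At 24 h it was -0.11 as deposited, and 0.031, 0.14 and 0.046 under those scalings. Ribosomal protein probe sets held 5.12% of all signal at 6 h and 5.19% at 24 h, against 4.92% in untreated cells, a share that does not depend on multiplying an array by a constant. Directions are given as deposited. Centring on array medians adds 0.23 at 6 h and 0.25 at 24 h to differences from untreated cells above the floor, and centring on bright probe sets adds 0.11 and 0.15, so a negative difference smaller than these changes sign.

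**Figure D2:**
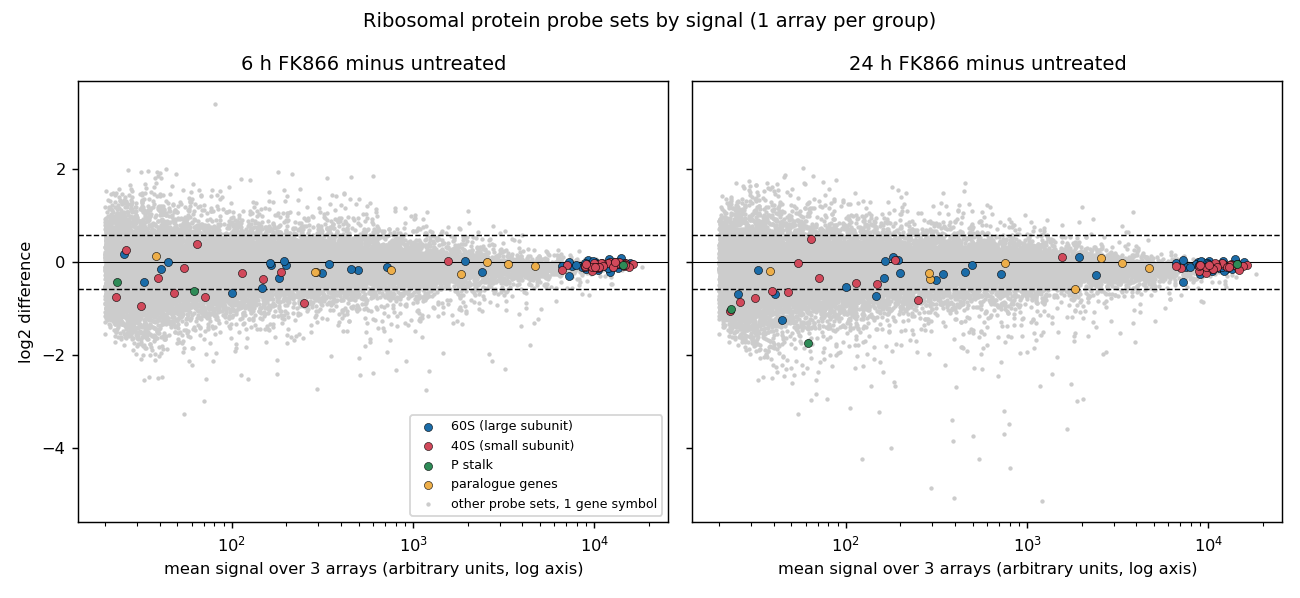
Log2 difference from untreated cells (vertical axis) against the mean signal over 3 arrays (horizontal axis, arbitrary units, log axis) at 6 h (left) and 24 h (right). Each coloured point is 1 ribosomal protein probe set by subunit, grey points are other probe sets with 1 gene symbol, and dashed lines mark 1.5-fold. The points of 1000 or more lie near 0, and the points beyond the lower dashed line are mostly dim.

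The probe sets fell into a bright and a dim class. A mean signal of 1000 or more was found for 75 of the 109, and these covered 53 of the 58 genes. Ribosomal protein probe sets took 30 of the 100 highest places of the whole array. In the brightest class, with a mean signal of at least 5000, 68 ribosomal protein probe sets had a median log2 difference of -0.071 at 6 h and -0.092 at 24 h, against -0.099 and -0.16 for 353 other probe sets of that class. Their interquartile range was 0.083 at 6 h and 0.078 at 24 h, against 0.13 and 0.15 for the others. In this class the ribosomal protein probe sets thus varied less among themselves than the others, as a description of these 3 arrays. Signals were not matched within the class, and some of the 68 share a gene. At signals of 1000 to 5000 the ranges were 0.15 against 0.27 at 6 h and 0.29 against 0.30 at 24 h. At 100 to 1000 they were 0.17 against 0.41 and 0.35 against 0.44. At 20 to 100 they were 0.7023 against 0.7024 and 0.59 against 0.74. The highest signal of any probe set was 20257.9, and whether signals near the top of the scale compress differences was not tested.

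**Figure D3:**
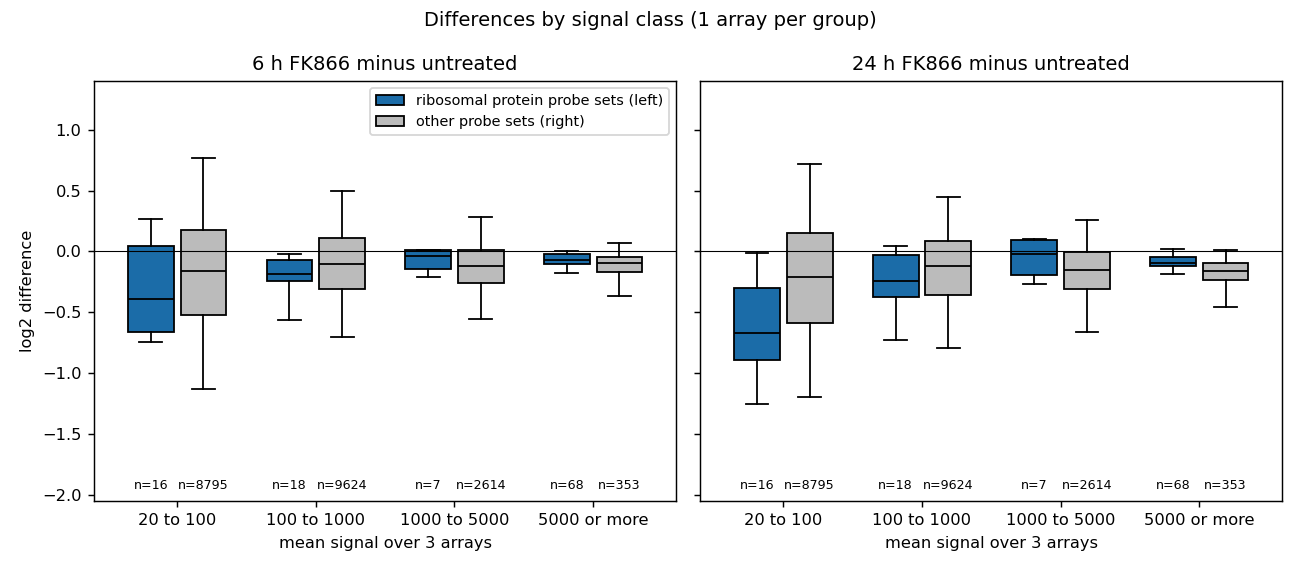
Box plots of the log2 difference from untreated cells (vertical axis) at 6 h (left) and 24 h (right) in 4 classes of mean signal, for ribosomal protein probe sets (blue, left in each pair) and other probe sets (grey, right). Boxes span the quartiles with the median as a line, whiskers run from the 5th to the 95th percentile, and n gives the probe sets. In the class of 5000 or more the blue boxes are narrower than the grey ones, and in the class of 20 to 100 their median at 24 h is -0.67 against -0.21. Some blue probe sets of that dimmest class passed the filter only through their earlier arrays.

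At the level of genes, each represented by its brightest probe set with 1 symbol, the small and large subunits had similar medians. The 30 genes of the 60S subunit had a median log2 difference of -0.058 at 6 h and -0.11 at 24 h. The 20 genes of the 40S subunit had -0.067 and -0.096. Over all 11330 genes the medians were -0.10 and -0.13. Both subunit medians turned positive under the other 3 scalings, reaching 0.17 (60S) and 0.16 (40S) at 6 h after centring on array medians. At least 1.5-fold lower were RPLP2 at 6 h, RPLP2, RPL36A and RPL22L1 at 24 h, and RPLP2 and RPL36A at 24 h against 6 h, that is 1, 3 and 2 of 58 genes, where 10.5%, 13.2% and 7.56% of all genes were lower. No gene of the 58 was 1.5-fold higher in any of the 3 comparisons, where 5.38%, 4.55% and 4.72% of all genes were. At 2-fold, 0 genes at 6 h (3.12% of all genes), 1 at 24 h (4.02%) and 1 at 24 h against 6 h (1.84%) were lower, and that gene was RPLP2. As deposited, 46 of the 58 genes lay below untreated cells at both times, where 51.0% of all genes did. The shares over all genes are not matched for signal, and 53 of the 58 genes had a bright probe set. At a mean signal of at least 5000, 306 of 353 other probe sets lay below untreated cells at 6 h and 332 at 24 h. For ribosomal protein probe sets the counts were 61 and 60 of 68. Above untreated cells at both times lay 4 of 58, where 21.9% of all genes did, and 38 of 58 were lower at each successive array, where 29.0% of all genes were.

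The 40S genes spread less than the 60S genes at 24 h, with interquartile ranges of 0.062 and 0.15. Their differences at 24 h ran from -0.24 to -0.026, with 20 of 20 negative as deposited. At that time 65.6% of all genes lay below untreated cells, as did 332 of 353 other probe sets with a mean signal of at least 5000. After centring on array medians the 40S median at 24 h was 0.15. Signals of different probe sets do not rank transcripts by amount. RPS19, the gene most often mutated in the inherited Diamond-Blackfan anaemia, had the highest untreated signal among probe sets with a single symbol, with 16694.5, 16181.3 and 15938.3 in the untreated, 6 h and 24 h arrays. RPS23, a protein of the decoding centre, had 16268.5, 15056.0 and 15239.3. RPS4X, encoded on the X chromosome, had 15536.2, 14799.3 and 13802.1. RPS16 had 15269.6, 14438.7 and 14040.4, and RPS10 had 15367.1, 14709.8 and 14364.1. These 5 genes had the highest untreated 40S signals among probe sets with a single symbol, while RPS3A, measured only together with SNORD73A, had 17033.1 and 16305.9 in untreated cells by its brightest probe sets. Each of the 5 differed from untreated cells by less than 0.18 on the log2 scale at both times. RPS6, whose protein is the classical substrate of the S6 kinases downstream of mTORC1, had 10964.5, 10135.6 and 10061.1, a log2 difference of -0.11 at 6 h and -0.12 at 24 h. RPS14, the gene lost in the 5q- syndrome, had 12256.1, 12314.1 and 11762.2, so its 6 h array was the only one of the 20 above untreated cells at 6 h.

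RPS25, a small subunit protein needed for initiation at some viral internal ribosome entry sites, had the lowest 40S values. Its signals were 10686.5, 9398.3 and 9061.2 in the same order of arrays, log2 differences of -0.19 and -0.24. Both treated arrays lay below the untreated one. After centring on array medians these became 0.044 and 0.0081.

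Among the 60S genes, RPL6 stood lowest of the bright ones. RPL6 had 8454.5, 6825.8 and 6306.0 in the untreated, 6 h and 24 h arrays, so it lay lower at each successive array. The log2 difference was -0.31 at 6 h and -0.42 at 24 h. Between bright probe sets of the same ribosomal protein gene, the pooled SD of the log2 difference was 0.062 at 6 h and 0.078 at 24 h (16 genes), and over all genes with several bright probe sets it was 0.13 and 0.15 (558 genes). As deposited, RPL6 differed by more than each of these, which do not include the variation between cultures or a shift between arrays. Because RPL6 was named as the lowest, exceeding a typical spread is partly set by that choice. After centring on array medians its 6 h difference, -0.079, was smaller than 0.13. RPL6 was measured by 1 probe set. Among 53 bright ribosomal protein genes it ranked lowest at 6 h and second lowest at 24 h under all 4 scalings, with its smallest differences, -0.079 and -0.18, after centring on array medians. No annotated RPL6 start printed above has the pyrimidine run.

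RPL11, which with RPL5 and 5S ribosomal RNA forms a particle that can bind the p53 inhibitor MDM2, had signals of 9762.6, 8857.9 and 8175.6 in the untreated, 6 h and 24 h arrays. Its log2 differences were -0.14 at 6 h and -0.26 at 24 h, also lower at each successive array, but after centring on array medians they were 0.089 and -0.0098. RPL5, the other protein of that particle, had no probe set with a single symbol. RPL27, a 60S protein, had 13112.2, 11571.4 and 11716.3 and a 6 h difference of -0.18. RPL27A had only a dim single-symbol probe set, with 212.8, 204.5 and 180.6 and the fifth lowest difference between the treated arrays, -0.18.

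The highest values among bright 60S genes were close to the untreated ones. RPL41, a very short peptide of the ribosome, had 13537.5, 14345.1 and 14246.3 and was above untreated cells at both times, by 0.084 and 0.074. RPL23A, a protein near the exit of the peptide tunnel, had 11704.4, 12328.6 and 11948.1. RPL29 had 9077.9, 9358.6 and 9099.3. RPL32 (10038.7, 10009.9 and 10239.4) and RPL3, which lies close to the peptidyl transferase centre (9135.9, 8932.2 and 9273.6), were above untreated cells only at 24 h. RPL12 had 8923.6, 8413.1 and 8929.5, so its 24 h signal was within 0.001 log2 units of untreated cells. RPL37A had the highest untreated 60S signal among probe sets with a single symbol, 15793.5, with 15599.1 at 6 h and 15890.1 at 24 h. All these differences were smaller than 0.10.

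**Figure D4:**
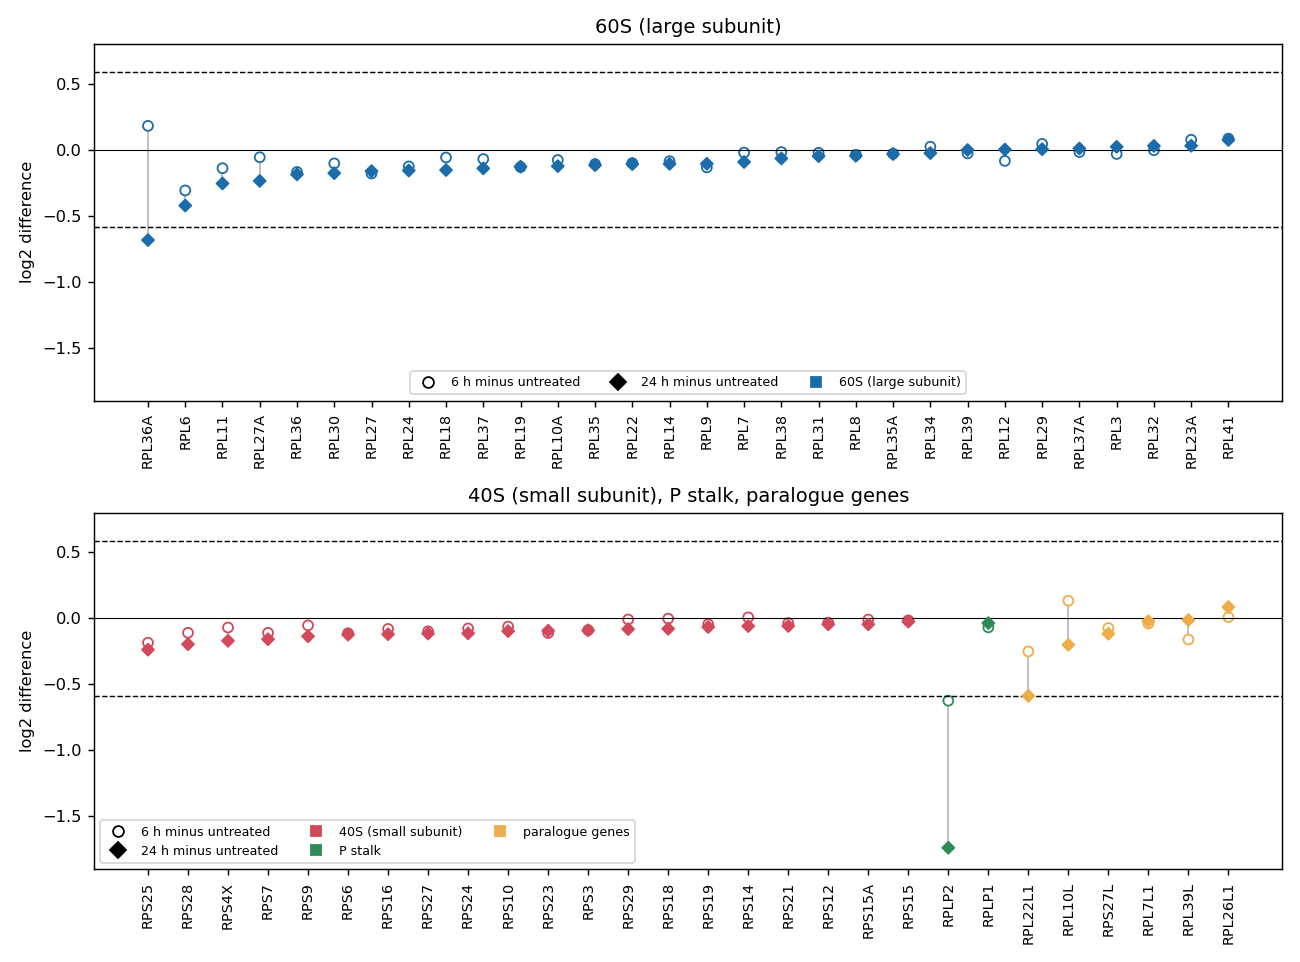
Log2 difference from untreated cells (vertical axis) of the 58 ribosomal protein genes, each by its brightest probe set, at 6 h (open circles) and 24 h (filled diamonds), with 60S genes above and 40S, P stalk and paralogue genes below, ordered by the 24 h value within each group. Dashed lines mark 1.5-fold, and RPLP2, RPL36A and RPL22L1 are the genes beyond the lower one at 24 h.

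The P stalk is the flexible arm of acidic proteins that recruits translation factors to the 60S subunit. RPLP1 had signals of 14756.8, 14067.9 and 14381.9, log2 differences of -0.069 at 6 h and -0.037 at 24 h. RPLP2 had the lowest value of all 58 genes, with signals of 95.7, 62.1 and 28.7 in the untreated, 6 h and 24 h arrays, log2 differences of -0.62 and -1.74. The 6 h difference was under 1.5-fold after quantile normalization (-0.44), after centring on array medians (-0.39) or bright probe sets (-0.52), with a floor of 64 (-0.58) and with log2(signal + 32) (-0.44), and with a floor of 64 so was the 24 h difference (-0.58). A second single-symbol probe set had 32, 23.7 and 13.7. It passed the filter through its untreated and 6 h values, so its lower 24 h value gives no support of its own, and its 24 h difference was -0.82 after quantile normalization and -0.98 after centring on array medians. A bright probe set assigned to both RPLP2 and the small nucleolar RNA SNORA52 within it had 12829.1, 12277.1 and 12366.6, differing by -0.064 and -0.053. The dim and bright probe sets of RPLP2 thus gave unlike differences. RPLP0 had no probe set with a single symbol.

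RPL36A showed the same split. Its only single-symbol probe set was dim, with 27.8, 31.5 and 17.3 and a 24 h difference of -0.68, the lowest of the 60S genes. That difference was under 1.5-fold after quantile normalization (-0.42), centring on array medians (-0.44) or on bright probe sets (-0.53) and with log2(signal + 32) (-0.28), and was 0 with a floor of 64. This probe set passed the filter through its untreated and 6 h values, so its lower 24 h value gives no support of its own. The counts of genes lower at 24 h include RPL36A. A probe set assigned to both RPL36A and the read-through gene RPL36A-HNRNPH2 had 11934.0, 12002.3 and 11517.7, differing by 0.0082 at 6 h and -0.051 at 24 h.

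Paralogue genes encode near-copies of ribosomal proteins, several of them expressed in few tissues. Of 7 listed, 6 were measured, and their median difference was -0.057 at 6 h and -0.070 at 24 h. RPL22L1, the paralogue of the RNA-binding protein RPL22, was the lowest bright ribosomal protein gene at 24 h. Its signals were 2207.2 without FK866, 1853.9 at 6 h and 1468.4 at 24 h, lower at each successive array, with log2 differences of -0.25 and -0.59. It was just past 1.5-fold lower at 24 h, and not 1.5-fold lower after quantile normalization (-0.40), centring on array medians (-0.34), centring on bright probe sets of other genes (-0.43) or with log2(signal + 32) (-0.58). It still ranked lowest of 53 bright genes at 24 h under all 4 scalings. RPL22 itself had 10439.4, 9727.3 and 9677.0 by its brightest probe set, differing by -0.10 and -0.11, and its 5 probe sets ranged from -0.27 to 0.10 at 24 h.

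The other paralogues differed little or were dim. RPL26L1 had 2488.5, 2502.9 and 2639.3, the highest 24 h difference of the 58 genes at 0.085. RPL7L1 had 3372.5, 3279.7 and 3321.1. RPS27L, a target of p53, had 4906.2, 4660.4 and 4523.3 by its brightest probe set, differing by -0.074 and -0.12. RPL39L had 781.5, 699.0 and 774.2, which gave the highest difference between the treated arrays, 0.15. RPL10L, a gene of the male germ line, had 38.5, 42.2 and 33.5. RPL3L, a muscle paralogue, did not pass the filter, with signals of 0.8, 0.8 and 1.7.

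Mutations in many ribosomal protein genes cause Diamond-Blackfan anaemia, and 14 of 19 such genes were measured. By the brightest probe set of each gene, their median difference was -0.070 at 6 h and -0.12 at 24 h. By these probe sets 0 of 14 were past 1.5-fold in either direction at either time. Dimmer probe sets are not in this count, and that of RPS19 was past 1.5-fold lower at 6 h (-0.75). Over all genes 10.5% were lower and 5.38% higher at 6 h, and 13.2% lower and 4.55% higher at 24 h. These 14 genes all had a mean signal of at least 1000. Of all probe sets that bright, 4.01% were lower and 0.953% higher at 6 h, and 5.92% lower and 0.592% higher at 24 h.

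Nearly all larger differences came from dim probe sets. Of the 13 probe sets at least 1.5-fold lower at 24 h, 12 had a mean signal under 1000 and 10 under 100, and RPL22L1 was the exception. The array as a whole was alike: 3231 of all 3411 probe sets lower by that much at 24 h had a mean signal under 1000. Of the 34 ribosomal protein probe sets with a mean signal under 1000, 7 were at least 1.5-fold lower at 6 h and 12 at 24 h, where 14.7% and 17.5% of all probe sets of that class were. At 24 h against 6 h, 4 of 34 were lower, where 9.2% of the class were. Their median was -0.22 at 6 h and -0.35 at 24 h, against -0.13 and -0.16 for 18419 other probe sets of that class. The 34 include probe sets of RPS15, RPLP2, RPL36A and RPS29 whose 24 h values lie under 20. These passed the filter through earlier arrays, so the filter partly sets the 24 h count and median. The same filter was applied to the other probe sets, and its part in the contrast was not tested. Of the 75 bright probe sets, 0 were lower at 6 h, 1 at 24 h and 0 at 24 h against 6 h, where 4.01%, 5.92% and 1.71% of all bright probe sets were. None of the 75 was 1.5-fold higher, where 0.953%, 0.592% and 0.69% of all bright probe sets were.

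These dim probe sets belonged mostly to genes that also had a bright one. In RPS24, a 40S protein, the dim probe set had 356.1, 192.3 and 201.5 (-0.89 and -0.82), while the bright one had 11592.5, 10987.6 and 10709.1 (-0.077 and -0.11). In RPS14 the dim probe set had 45.0, 23.4 and 26.3 (-0.94 and -0.77). In RPS15 it had 33.1, 19.7 and 15.7, and since only the untreated value lies above the filter of 20, this probe set had to be lower in treated cells to be kept. The bright RPS15 probe set had 12009.5, 11875.4 and 11798.4. RPS15A (63.4, 39.9 and 40.3) was also at least 1.5-fold lower at both times in its dimmest probe set. With RPLP2, 5 of 109 probe sets were past 1.5-fold at both times, where 7.21% of all probe sets were. Those of RPLP2 and RPS15 were not past it at 6 h after quantile normalization or centring on array medians. Centring on array medians adds 0.25 at 24 h, which leaves those of RPS14, RPS24 and RPS15A under 1.5-fold at that time. The 2 comparisons share the untreated array.

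Further dim probe sets passed 1.5-fold only at 24 h, or only at 6 h. The dimmest kept probe set of RPL35A, a 60S protein, had 55.2, 55.7 and 23.1 (0.013 and -1.26), while the bright one had 14113.7, 13821.2 and 13791.0. The dim probe set of RPS29 had 28.9, 34.7 and 15.0, so its 24 h value lay under the floor and was at least 1.81-fold lower than in untreated cells. It passed the filter through its untreated and 6 h values, so its lower 24 h value gives no support of its own. The counts of probe sets lower at 24 h include it. The dim probe set of RPL14 had 48.4, 43.7 and 30.2, and the dimmest of RPS28 had 48.0, 37.6 and 31.4. In RPL37A, 2 dim probe sets had 191.9, 129.8 and 116.1, and 129.1, 81.9 and 88.8, with the first past 1.5-fold at 24 h and the second at 6 h. RPS19 had a dim probe set with 89.6, 53.4 and 70.9, past 1.5-fold at 6 h alone. The dim probe set of RPS23 went the other way, with 51.9, 67.6 and 72.8 (0.38 and 0.49), the highest value of the 109 at each time.

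Within genes, dim and bright probe sets could be compared in 19 cases. The mean of the dim probe sets was below that of the bright ones in 15 of 19 genes at 6 h and in 15 of 19 at 24 h, with a median gap of -0.18 at 6 h and -0.27 at 24 h. In 1267 other genes with both classes, the dim mean was lower in 62.1% at 6 h and 59.7% at 24 h, with median gaps of -0.079 and -0.071. Between 24 h and 6 h, the dim mean was lower in 9 of 19 genes, with a median gap of 0.0003. In the 1267 other genes it was lower in 47.9%, with a median gap of 0.014. Without RPS15 and RPS29, whose dim probe sets have a 24 h value under the floor, a choice made after seeing the data, the dim mean was lower in 14 of 17 genes at 6 h and 13 of 17 at 24 h, with median gaps of -0.18 and -0.19. Which transcripts the dim probe sets detect was not tested.

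**Figure D5:**
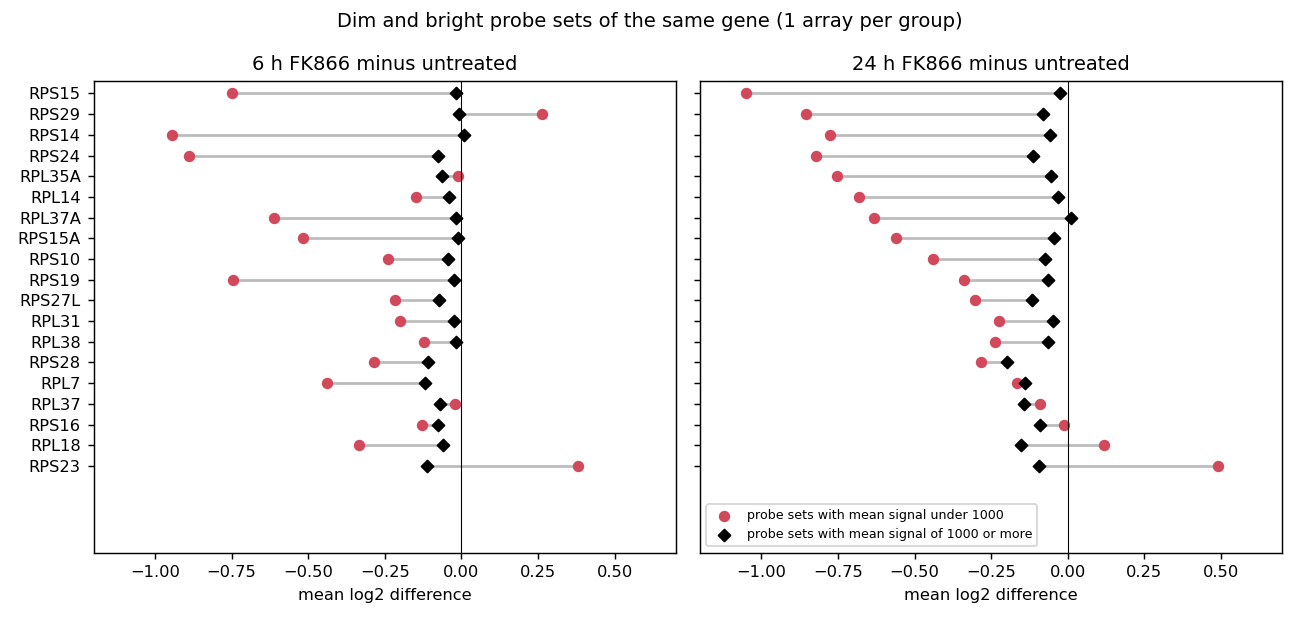
Mean log2 difference from untreated cells (horizontal axis) of dim probe sets (red circles, mean signal under 1000) and bright probe sets (black diamonds, 1000 or more) of the same 19 ribosomal protein genes (vertical axis), at 6 h (left) and 24 h (right). The bright values lie near 0 in each gene, and the dim values lie to their left in 15 of 19 genes at each time.

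The filter on mean signal left out 11 of the 120 probe sets. Just outside it, probe sets of RPS27 (28.6, 11.6 and 17.9) and RPL18 (19.6, 21.1 and 11.1) had means under 20, and just inside it lay those of RPS15 and RPLP2 given above, with means of 22.8 and 23.1.

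Of 4 ribosomal proteins that the naming rule misses, 2 were measured. FAU, which encodes RPS30 fused to a ubiquitin-like protein, had 11858.8, 11541.3 and 11402.5, and RPL36AL, a retained copy of RPL36A, had 4926.6, 4787.7 and 4155.2. Of 17 other translation genes whose mRNAs carry TOP tracts, 14 were measured. By the brightest probe set of each gene, 0 were past 1.5-fold in either direction at either time. All genes had the shares given for the Diamond-Blackfan genes (10.5% and 13.2% lower, 5.38% and 4.55% higher). All 14 had a mean signal of at least 1000, where the shares were the smaller ones given there for bright probe sets. The median difference of these 14 genes was -0.10 at 6 h and -0.092 at 24 h. Dimmer probe sets of EEF1A1 (-0.77 and -1.01) and HNRNPA1 (-0.92 and -0.61, and -0.90 and -1.05) were past 1.5-fold lower at both times. That of EIF3F was past it at 24 h (-0.60).

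Genes that act on TOP mRNAs had medians of -0.24 at 6 h and -0.20 at 24 h over 9 genes, against -0.10 and -0.13 over all genes. RPTOR, the mTORC1 subunit raptor, had signals of 42.3, 22.6 and 41.8, so its 6 h value was the low one (-0.90). By the brightest probe sets RPTOR was the only gene of the 9 at least 1.5-fold lower at 6 h. With a floor of 64 it had no difference, and its 24 h difference of -0.017 became 0.26 after quantile normalization. LARP1 had 2948.1, 2626.2 and 2571.1 by its brightest probe set, while its dimmest had 89.1, 53.5 and 66.2 (-0.74 and -0.43). RPS6KB1, an S6 kinase, had 1064.9, 917.6 and 744.8 by its brightest probe set, differing by -0.21 and -0.52. Its second probe set had 862.1, 627.0 and 827.6, differing by -0.46 and -0.059, so it disagrees with the brightest on which time is lower. The third had 268.5, 244.3 and 217.1, differing by -0.14 and -0.31, with 24 h lower as in the brightest. RPS6KB2 had 159.2, 132.0 and 123.2. MTOR had 99.3, 81.8 and 91.2. The cap-binding protein gene EIF4E had 1704.6, 1422.4 and 1394.6, its inhibitor gene EIF4EBP1 had 422.9, 357.1 and 359.4, and EIF4EBP2 had 659.7, 749.5 and 607.9. At 6 h the other EIF4E probe sets ran from -0.52 to 0.20. MYC, a transcription factor that promotes ribosome production, had 5995.5, 6684.8 and 5360.0. As deposited, 9 of 9 of these genes were at 24 h below untreated cells, where 65.6% of all genes were. After quantile normalization 5 of 9 were, after centring on array medians 3 of 9 and after centring on bright probe sets 6 of 9. At 24 h, 0 of 9 were at least 1.5-fold lower, where 13.2% of all genes were.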

How the data were processed

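The deposited values are linear intensities, 1 for each probe set of each of 3 Affymetrix arrays. Per the labels' protocols, the standard Affymetrix labelling started from 1 µg of RNA; probe summary, background correction and scaling are not given in the sources used here. GEO's platform annotation named the genes. All 120 probe sets matched a protein-coding RefSeq gene by identifier. Signals below 16 were set to 16 and log2 differences taken. Probe sets with a mean signal of at least 20 were kept, and a gene has the value of its brightest one. Counts use 1.5-fold. Members, lists and rules were chosen with earlier results of these data known. The named genes are the paralogue, P stalk and 5S particle genes, the 5 highest and 5 lowest in each comparison, those 2-fold different, the 5 brightest, those whose probe sets disagree by over 1 log2 unit, genes outside the naming rule and TOP regulators; other genes were chosen after their values were seen. The only error measure is the spread between probe sets of a gene. The number of arrays limits the precision. The procedure was tested on simulated data. Promoter sequences are from RefSeq, GRCh38.p14; proteins were not compared. Python 3.11.15, numpy 2.4.6, pandas 2.3.3 and matplotlib 3.10.9 were used.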

Additional observations from a re-analysis of the deposited data

How the results depend on the processing

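No paired analysis was possible because each group has 1 array. Values below are in the order 6 h against untreated, then 24 h against untreated. Median differences of the ribosomal protein probe sets became 0.0062 and 0.031 after quantile normalization, 0.14 and 0.14 after centring on array medians, and 0.020 and 0.046 after centring on bright probe sets of other genes (0.028 for 24 h against 6 h). Probe sets at least 1.5-fold lower (7 and 13) numbered 2 and 6 after quantile normalization, 3 and 5 after centring on array medians, 7 at 24 h after centring on bright probe sets, 1 and 3 with a mean signal of at least 100, 2 and 3 with a floor of 64, 1 and 4 with log2(signal + 32), and 0 and 4 at 2-fold. With a mean signal of at least 1000, an alternative chosen after seeing the data, they numbered 0 and 1. Each of the 3 scalings gave 1 probe set at least 1.5-fold higher at 24 h, as did the first 2 at 6 h and no filter at 24 h and at 24 h against 6 h. Genes at least 1.5-fold lower (1 and 3) numbered 0 and 1 under those 3 scalings, a mean signal of at least 100, a floor of 64, log2(signal + 32) and 2-fold, and 4 and 7 once probe sets ending in x, s or a, which may cross-hybridise, were dropped. With the mean over probe sets there were 0 at 6 h. At 24 h against 6 h, the 4 lower probe sets became 0 with a mean signal of at least 100 or 1000 or a floor of 64, and 2 with log2(signal + 32) or after dropping probe sets ending in x, s or a; the 2 lower genes became 0, 0, 1, 1 and 1 with a mean signal of at least 100, a floor of 64, log2(signal + 32), no such endings and 2-fold. The cause was not tested where the scaling moved a value; a stricter filter or a higher floor takes out dim probe sets by construction.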

Other observations

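Many ribosomal protein genes host small nucleolar RNAs in their introns, and their probe sets carry several symbols. In all, 65 probe sets named a ribosomal protein gene together with another gene, 56 of them with a small nucleolar RNA, and 15 genes had no probe set with a single symbol. Of the 65, 47 had a mean signal of at least 1000, with a median difference from untreated cells of -0.066 after 6 h and -0.078 after 24 h, and 0 of 47 were at least 1.5-fold higher or lower at either time. Over all bright probe sets with 1 symbol, 4.01% were lower and 0.953% higher at 6 h, and 5.92% lower and 0.592% higher at 24 h. The lowest of the 47 at both times belonged to RPL5, the partner of RPL11, chosen here after its values were seen. Its signals were 14558.6, 10963.1 and 10527.4 in the untreated, 6 h and 24 h arrays (-0.41 and -0.47). The second bright RPL5 probe set had 7314.1, 6433.2 and 6461.9 (-0.19 and -0.18). Of the 61 with a mean signal of at least 20, 4 were 1.5-fold lower and 2 higher at 6 h, and 1 was lower and 1 higher at 24 h, where 13.2% and 15.9% of all probe sets with 1 symbol were lower and 5.24% and 4.44% higher. The lower one at 24 h named RPL27A and SNORA3A, with 82.6, 48.0 and 35.5, while a bright one of the same pair had 14431.4, 13474.6 and 14084.5. The higher one named RPS3A and SNORD73A, with 37.6, 95.3 and 122.6 (1.34 and 1.71), while its bright ones differed by -0.021 to -0.19 at 24 h.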
